A study of Mus musculus with 49 samples.

Results

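The genes described here encode ATPases and subunits of the SWI/SNF and ISWI chromatin remodelers and 3 helicases of the CHD family. The 10 members are Smarca4, Smarca2, Smarcb1, Smarcc1, Arid1a, Arid2, Smarca5, Chd1, Chd4 and Chd8, chosen by symbol among the 54838 genes of the read count tables, and each matched a single Ensembl gene in the GENCODE annotation of GRCm38. The libraries are single mouse embryos from matings of F1 C57BL/6JxCBA/H females with F1 males. They were collected at the late 2-cell stage, 48 h after hCG. Sequencing was by Smart-seq+5', in which the reads at the 5' end of each transcript are counted. All embryos received an antibody as zygotes and mRNA for mCherry-Trim21 4 h later, so that the antibody-bound protein is degraded (Trim-Away). The groups are TBP LOF (loss of function, a mouse monoclonal antibody against TBP, 9 embryos), its mouse IgG CONTROL (10 embryos), FOXJ3 LOF (a rabbit polyclonal antibody against FOXJ3, 17 embryos) and its rabbit IgG CONTROL (13 embryos). The study's methods give the sizes of the TBP LOF group and its CONTROL the other way round, and the labels were followed. The FOXJ3 embryos were processed in 2 library batches that differ in the aliquot of lysis buffer. The antibody and Trim21 are present in the controls too, so each comparison is between antibodies and not with uninjected embryos. The embryos came from several collections, but which embryo belongs to which is not in the labels, so the p-values measure the spread between embryos.

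Chromatin remodelers use ATP to slide, evict or exchange nucleosomes and so open or close promoters and enhancers to transcription factors. SWI/SNF complexes hold one of the alternative ATPases SMARCA4 (BRG1) or SMARCA2 (BRM) around a core with SMARCB1 and SMARCC1, ISWI complexes space nucleosomes with SMARCA5 (SNF2H), CHD1 travels with elongating RNA polymerase II, and CHD4 is the ATPase of the NuRD deacetylase complex. Oocytes load mRNAs of such factors, the embryo then replaces them from its own genome during zygotic genome activation (ZGA), and maternal SMARCA4 is known to be needed for normal ZGA in the mouse.

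TBP is named for its binding to the TATA box, so the sequence just before the start site is shown for 2 members with lower read counts in TBP LOF embryos and for 2 that did not pass the test. These are the 100 bases before the RefSeq start site on GRCm38.p6, 5' to 3' on the strand of the gene. Capitals mark the GC box GGGCGG, which in Smarca4 and Smarcb1 lies elsewhere in the longer promoter window.
Smarca4, chr9:21616069-21616168, + strand: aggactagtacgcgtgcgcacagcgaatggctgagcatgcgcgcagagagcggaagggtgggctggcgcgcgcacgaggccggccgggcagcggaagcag
Smarcb1, chr10:75921615-75921714, - strand: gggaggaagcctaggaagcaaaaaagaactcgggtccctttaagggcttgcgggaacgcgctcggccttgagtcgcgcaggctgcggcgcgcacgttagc
Smarca2, chr19:26605060-26605159, + strand: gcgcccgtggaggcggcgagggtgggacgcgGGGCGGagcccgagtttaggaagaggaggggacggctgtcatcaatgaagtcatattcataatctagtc
Chd4, chr6:125095881-125095980, + strand: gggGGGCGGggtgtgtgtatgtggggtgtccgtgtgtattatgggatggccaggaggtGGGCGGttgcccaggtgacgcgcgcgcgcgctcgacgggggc

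RefSeq promoter windows, from 250 bases before to 50 bases after the start, were matched for 8 of the 10 members (all but Arid2 and Chd1), with 10 windows in all because Arid1a and Chd4 have a pair of starts each. The letters TATAAA were in 0 of these 10 windows on either strand, against 13.6% of all 32851 promoter windows of the same 300 bases. Between 40 and 16 bases before the start, on the gene strand, they were in 1.99% of all windows. With so few windows of members, a count of 0 does not set them apart. The GC box GGGCGG was in all 10 windows on one strand or the other, against 35.7% of all windows. The letters CCAAT were in 3 of the 10 windows, both of Chd4, which overlap, and that of Chd8, against 37.4% of all windows. The windows of the printed genes were rich in G and C, with 72.3% in Smarca4, 65.7% in Smarca2, 60.7% in Smarcb1 and 57% in the upstream window of Chd4, against a median of 52.7% over all promoters. These letters were shared by members that fell in TBP LOF embryos and members that did not pass the test. A match or its absence describes these letters in this window only.

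Of the 49 embryos, 47 passed the study's limits (500000 counted reads and 1000 genes or more, mitochondrial share up to 10%, ERCC spike-in share up to 15%), with 1103569 to 5434808 counted reads each. The 2 others, 1 mouse IgG CONTROL and 1 FOXJ3 LOF embryo, were left out. Markers of the 2-cell stage such as Zscan4d and Zfp352 were read in all 4 groups (6 of 6 listed genes), and the summed level of 8 cumulus cell markers was at most 25.8 CPM (reads scaled to the same total of gene and transposon reads in each embryo) in any embryo, with Fshr at 0 in all groups and Amh, Ptx3 and Has2 at 0 in some. Embryos 2 and 3 of the batch 1 rabbit IgG CONTROL stood apart from the rest. Over all genes with at least 20 reads on average, their rank correlation with the median of the other embryos of their group and batch was 0.701 and 0.572, while it was between 0.811 and 0.928 in the other 45 embryos. Several results that include them are given with and without them, and the others only with them. The targeted gene Tbp was lower in TBP LOF embryos, with 6.59, 83.3 and 150.9 normalised reads (lowest, median and highest of 9) against 195.5, 279.5 and 672.2 in CONTROL embryos (log2 fold change -2.14, SE 0.37, adjusted p = 5.26e-06, edgeR). Foxj3 mRNA was not lower in FOXJ3 LOF embryos (log2 fold change 0.28, SE 0.13, adjusted p = 0.861, edgeR), and Trim-Away acts on the protein.

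All 10 members were read in every embryo, from 9 to 533 reads. To compare genes with each other, CPM values were divided by the kilobases of annotated exon. This scale is approximate for 5' reads, which do not cover the whole transcript, and the order of the genes depends on it. In mouse IgG CONTROL embryos the ATPases Smarca4 and Smarca5 led with 12.7 ± 1.85 and 11 ± 1.96 CPM per kb (SD, n = 9), and they differed by less than their spread. Arid1a followed with 7.73 ± 1.26 and Smarcc1 with 6.34 ± 1.26, each below its upper neighbour by more than the larger SD. From Smarcc1 downwards neighbours did not differ beyond their spread, in the order Chd1 (5.29 ± 1.00), Smarcb1 (4.66 ± 1.49), Chd4 (4.33 ± 1.02), Arid2 (3.37 ± 0.873), Smarca2 (3.24 ± 1.24) and Chd8 (2.52 ± 0.786). Per length, Smarca4 was above its alternative ATPase Smarca2 in these embryos, with ranges of 9.03 to 14.5 and 1.44 to 5.40 that did not overlap. The separation of the ranges rests on the division by length. In undivided CPM the ranges overlapped, with 58.4 to 93.6 for Smarca4 and 20.5 to 77.0 for Smarca2. The mean of Smarca4 was still the higher, at 82.0 against 46.2 CPM. In rabbit IgG CONTROL embryos the mean of Smarca2 (90.4 CPM) was above that of Smarca4 (76.3 CPM). These means include the pair of embryos that stood apart, at 211.7 and 151.1 CPM for Smarca2 and 37.5 and 17.1 CPM for Smarca4. Without them the mean of Smarca4 was the higher.

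In rabbit IgG CONTROL embryos Smarca5 was first with 14.5 ± 6.14 CPM per kb (SD, n = 13), then Smarca4 with 11.8 ± 5.24 and Smarcc1 with 9.24 ± 4.10, none of which differed from its neighbour beyond the spread. Smarca2 was sixth with 6.335 ± 3.67, and Chd8 was last with 1.90 ± 0.441, below Chd4 by more than the larger SD. Without the pair of embryos that stood apart, Smarca4 was at 13.2 ± 4.35 and Smarca2 at 5.18 ± 2.38 (SD, n = 11), and Smarca2 moved from rank 6 to rank 7 while Smarcb1 took its place. The mouse and rabbit IgG embryos belong to separate experiments, so differences between the control groups were not tested.

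**Figure D1:**
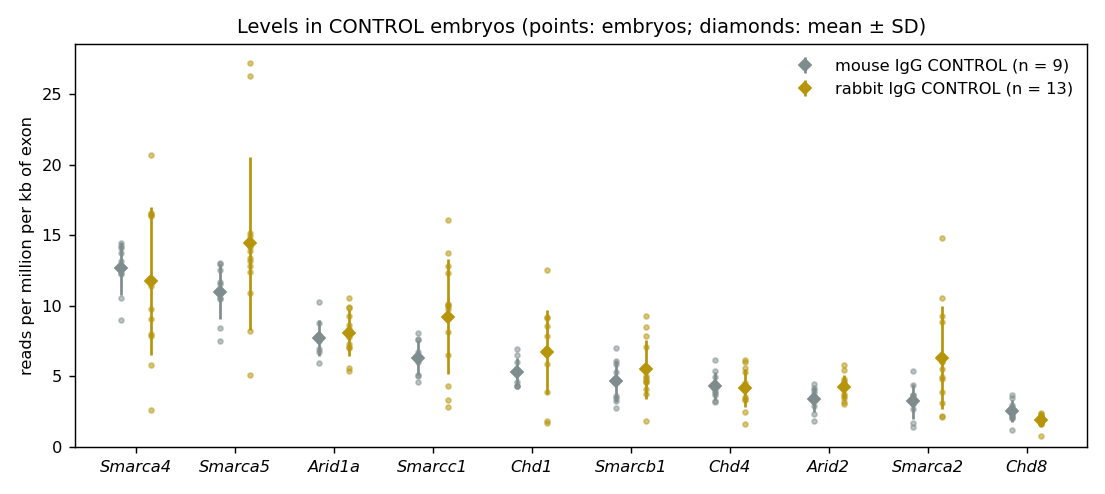
Level of each gene in CONTROL embryos, in CPM per kb of annotated exon (linear axis from 0). Small points are embryos, diamonds and bars are the mean ± SD of 9 mouse IgG and 13 rabbit IgG embryos. On this scale Smarca4 and Smarca5 are highest and Chd8 lowest in both groups, and Smarca4 and Smarca5 spread more among rabbit IgG embryos. In undivided CPM Arid1a ranked 1 and Chd8 7 in mouse IgG embryos.

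Across the 22 CONTROL embryos, several members varied together once the mean of each control group and batch was subtracted from log2 of CPM plus 1. Of 45 pairs of members, 5 rose and fell together and 1 moved oppositely with an adjusted p under 0.05 for both Pearson's r and Spearman's rho (permutation within group and batch, 100000 draws, two-sided). The share of such pairs among all genes was not computed, so the counts are not shown to be particular to the members. Chd1 and Smarcc1 had r = 0.86 (permutation adjusted p = 0.0072) and rho = 0.811 (permutation adjusted p = 0.0036). Chd1 and Smarca4 had r = 0.847 (permutation adjusted p = 0.0072) and rho = 0.834 (permutation adjusted p = 0.0036). The opposite pair was Smarca2 and Chd1 with r = -0.737 (permutation adjusted p = 0.0185) and rho = -0.661 (permutation adjusted p = 0.0385). Leaving out the 2 embryos farthest from the median of the first gene gave r = 0.736 for Smarcc1 and Chd1, 0.778 for Smarca4 and Chd1, and -0.604 for Smarca2 and Chd1.

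These relations were strongest in batch 1 of the rabbit IgG CONTROL, where r was 0.983 for Smarcc1 and Chd1, 0.924 for Smarca4 and Chd1, and -0.883 for Smarca2 and Chd1. In the mouse IgG embryos the same pairs had r = 0.538, 0.766 and -0.453, and in batch 2 r = 0.584, 0.334 and -0.314. Without the pair of embryos that stood apart, r was 0.736 for Smarcc1 and Chd1 with a permutation adjusted p = 0.0659 and 0.762 for Smarca4 and Chd1 with a permutation adjusted p = 0.0711, and for Smarca2 and Chd1 it was -0.563 with a permutation adjusted p = 0.204. By Pearson's r 0 of the 45 pairs passed the threshold without these embryos, so none of the 6 calls was kept. Spearman's rho was not computed without them, and fewer embryos also make the threshold harder to pass. The levels are shares of each embryo's reads, which itself ties genes to each other.

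Among 7260 genes with at least 20 reads per CONTROL embryo on average, those whose level was most like that of Smarca4 over the 22 embryos were Pigx (r = 0.957), Pttg1ip (r = 0.949) and Ccdc124 (r = 0.947). For Smarca5 they were Hnrnpab (r = 0.903), Smim13 (r = 0.891) and Glmp (r = 0.870), and for Chd4 they were Myo5b (r = 0.802), Parp12 (r = 0.792) and Kctd3 (r = 0.778). Without the 2 embryos that stood apart, Pigx remained in the first 3 for Smarca4 with r = 0.883, Hnrnpab and Smim13 for Smarca5 with r = 0.791 and 0.766, and Myo5b and Parp12 for Chd4 with r = 0.794 and 0.778.

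The first comparison asks what happens to the remodeler mRNAs when TBP, a core factor of transcription initiation, is degraded before ZGA. Counts were scaled to the ERCC spike-ins, which came in a shared lysis buffer and so keep a change in total mRNA visible, and are called normalised reads. Of the 10 members, 6 fell in TBP LOF embryos and 0 rose, while 29.8% of the 18447 genes tested fell and 1.4% rose (edgeR quasi-likelihood test, Benjamini-Hochberg adjusted p under 0.05 over all genes and transposon families). The members that fell were the ATPase genes Smarca4 and Smarca5, the core subunits Smarcb1 and Smarcc1, and the helicases Chd1 and Chd8. Smarca2, Arid1a, Arid2 and Chd4 did not pass the test. No member was higher at an unadjusted p under 0.05, and DESeq2 also called 6 lower and 0 higher. The median log2 fold change was -1.02 over the members and -0.70 over all genes tested. With a stricter filter on low counts (filterByExpr), 4056 of 7699 genes and 6 members fell, and the median over all genes was -0.90. Each library is a whole embryo, so fewer cells and less RNA per cell cannot be told apart.

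Smarca4 (chr9:21616169-21704230), the SWI/SNF ATPase of early embryos, had 126.4, 168.5 and 244.5 normalised reads (lowest, median and highest of 9) in CONTROL embryos and 24.4, 59.5 and 113.9 in TBP LOF embryos. The groups did not overlap, though the share of all genes with such a separation was not computed. Smarca4 thus fell 2.86-fold (log2 fold change -1.52, SE 0.31, adjusted p = 8.65e-05, edgeR). Smarca2 (chr19:26605050-26778322), its alternative, had 38.8, 99.8 and 166.6 normalised reads in CONTROL and 51.6, 154.5 and 238.2 in TBP LOF embryos. The groups overlapped, with 4 of 9 TBP LOF embryos above the highest CONTROL embryo. It did not pass the test (log2 fold change 0.51, SE 0.32, adjusted p = 0.233, edgeR). Gm20616 and 4931403E22Rik overlap Smarca2 on the opposite strand.

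Smarcb1 (chr10:75896769-75921617), a core subunit that is lost in rhabdoid tumours, had 46.9, 83.5 and 145.1 normalised reads in CONTROL and 10.3, 25.4 and 40.7 in TBP LOF embryos. The groups did not overlap, and this was the largest fall among the members (log2 fold change -1.73, SE 0.33, adjusted p = 3.02e-05, edgeR). Smarcc1 (chr9:110117708-110240178), a scaffold subunit, had 83.1, 104.1 and 154.3 normalised reads in CONTROL and 7.32, 36.7 and 109.8 in TBP LOF embryos. All but 1 of the TBP LOF embryos were below the lowest CONTROL embryo (log2 fold change -1.35, SE 0.34, adjusted p = 0.00146, edgeR). Dhx30 overlaps Smarcc1 on the opposite strand. The sources used here do not give whether counting used the strand, so reads of such pairs cannot be told apart.

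The genes of the alternative ARID subunits did not pass the test. Arid1a (chr4:133679008-133756769), which targets the canonical BAF form, had 163.4, 195 and 239.7 normalised reads in CONTROL and 67.4, 162.2 and 276.8 in TBP LOF embryos. The TBP LOF embryos lay on both sides of the CONTROL range, with 5 of 9 below it and 3 above it (log2 fold change -0.14, SE 0.29, adjusted p = 0.766, edgeR). Arid2 (chr15:96287518-96404992), of the PBAF form, had 37.1, 86.5 and 97.0 normalised reads in CONTROL and 33.8, 77.3 and 133.6 in TBP LOF embryos, with groups that overlapped (log2 fold change 0.03, SE 0.31, adjusted p = 0.953, edgeR).

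Smarca5 (chr8:80698507-80739497), the ISWI ATPase, had 126, 205.5 and 239.5 normalised reads in CONTROL and 23.2, 103.1 and 199.2 in TBP LOF embryos. The groups overlapped, yet 7 of 9 TBP LOF embryos were below the lowest CONTROL embryo (log2 fold change -0.96, SE 0.31, adjusted p = 0.0139, edgeR).

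Chd1 (chr17:15704967-15772610), which reads H3K4 methylation, had 77.1, 104.7 and 155.1 normalised reads in CONTROL and 21.8, 47.1 and 72.9 in TBP LOF embryos. The groups did not overlap (log2 fold change -1.09, SE 0.30, adjusted p = 0.00366, edgeR). Chd8 (chr14:52198151-52257780), known as a regulator of beta-catenin targets, had 39.96, 92.7 and 139.7 normalised reads in CONTROL and 13.9, 49.4 and 60.3 in TBP LOF embryos. All 9 TBP LOF embryos were below the CONTROL median and 3 were below the lowest CONTROL embryo (log2 fold change -1.21, SE 0.33, adjusted p = 0.00325, edgeR). Gm26590 overlaps Chd8 on the opposite strand. Chd4 (chr6:125095981-125130591), the NuRD ATPase, had 45.5, 78.7 and 130.2 normalised reads in CONTROL and 29.7, 78.5 and 196.9 in TBP LOF embryos. The medians nearly coincided (log2 fold change 0.06, SE 0.32, adjusted p = 0.916, edgeR), and the highest TBP LOF embryo stood well above the others.

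**Figure D2:**
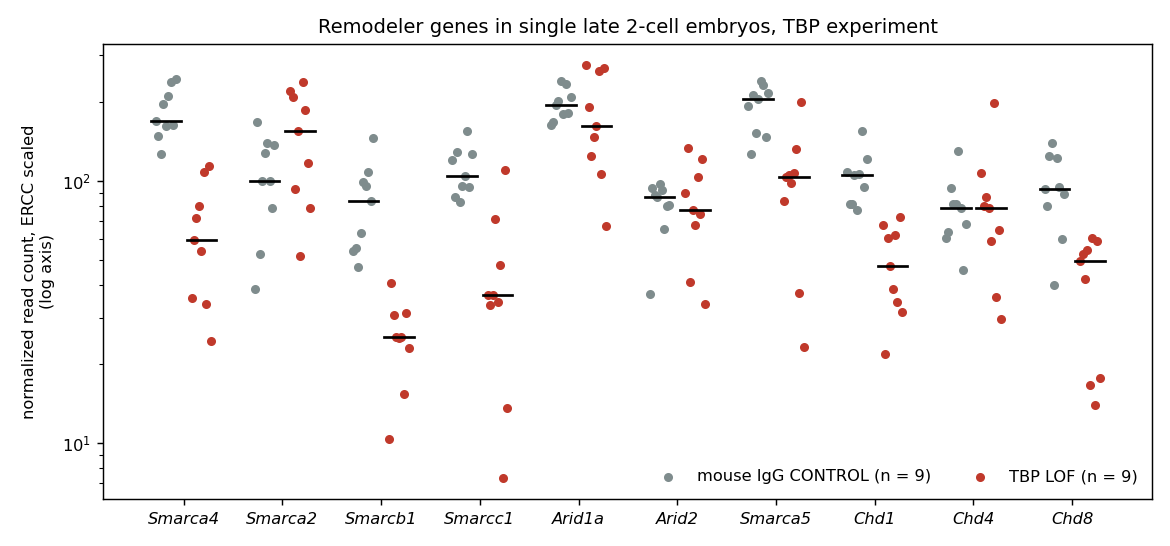
Normalised reads of each gene in single embryos of the TBP experiment, ERCC scaled (log axis). Points are embryos and black lines group medians, with 9 mouse IgG CONTROL and 9 TBP LOF embryos. Smarca4, Smarcb1 and Chd1 show separate groups, while those of all the other members overlap. Most Smarca2 points are as high or higher in TBP LOF. The share of all genes with separate groups was not computed.

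The ERCC reads took a median of 4.38% of the counted reads in TBP LOF and 2.82% in CONTROL embryos, and with the ERCC scale the whole distribution of genes was shifted down. Under TMM scaling, which assumes that most genes do not change, the median log2 fold change over all genes was 0.13 in place of -0.70. The calls among all genes were then nearly balanced, with 49.4% of them lower against 95.5% under ERCC scaling. On that scale 2 members fell, Smarca4 (log2 fold change -0.70, SE 0.21, adjusted p = 0.0124, edgeR) and Smarcb1 (-0.74, SE 0.27, adjusted p = 0.0364), against 12.9% of all genes. Another 4 rose, Smarca2 (1.35, SE 0.26, adjusted p = 0.000234), Chd4 (0.83, SE 0.22, adjusted p = 0.00617), Arid2 (0.85, SE 0.23, adjusted p = 0.0075) and Arid1a (0.66, SE 0.20, adjusted p = 0.0143), against 13.2% of all genes. Smarcc1, Smarca5, Chd1 and Chd8 did not pass the test. The scale thus sets whether Smarca2, Arid1a, Arid2 and Chd4 are called higher or not called, and whether 4 of the 6 falls are called.

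Among all genes, under ERCC scaling, 20.5% had a lower log2 fold change than Smarcb1, 25.9% than Smarca4, 30.5% than Smarcc1, 34.5% than Chd8, 38.1% than Chd1 and 42.2% than Smarca5. For the members that did not pass the test these shares were 68.3% for Arid1a, 74.1% for Arid2, 74.9% for Chd4 and 86.8% for Smarca2. A change of scale shifts all genes by nearly the same amount, so it leaves such positions nearly as they are.

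**Figure D3:**
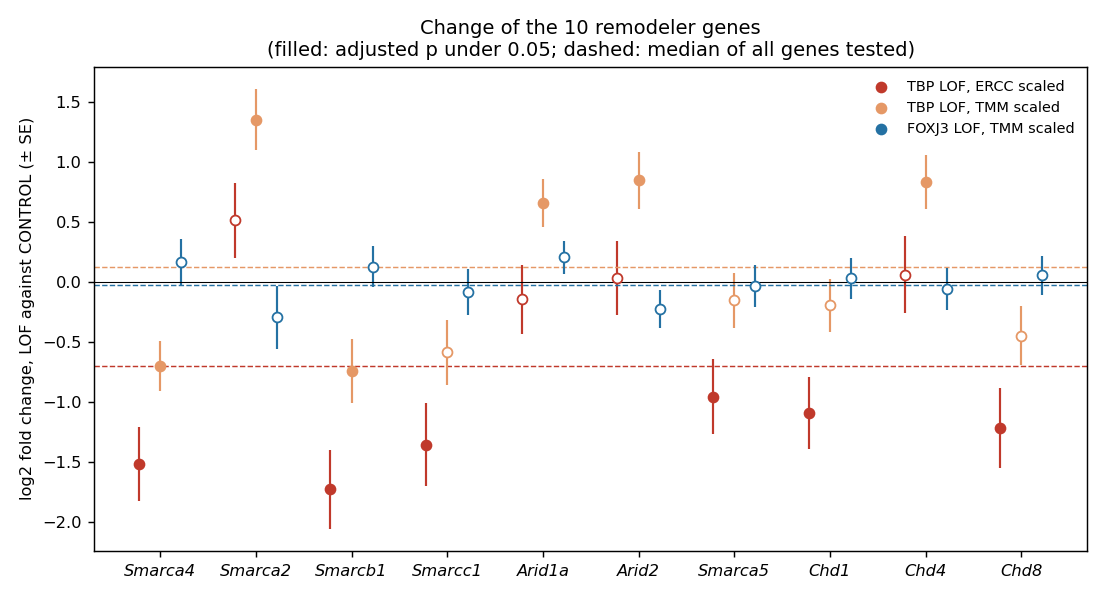
Log2 fold change of each gene, LOF against CONTROL, with its SE. Red is TBP LOF with ERCC scaling, orange TBP LOF with TMM scaling and blue FOXJ3 LOF with TMM scaling. Filled points passed an adjusted p of 0.05, and dashed lines are the medians of all genes tested, -0.70, 0.13 and -0.03.

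A ratio of 2 genes within an embryo does not depend on any scaling. The reads of 3 pairs of alternative or related members were compared in both experiments as a description. Permutation tests over embryos were run on these ratios, but their p-values are not given, since the pairs were chosen after their values were seen. The log2 ratio of Smarca4 to Smarca2 reads was -0.17, 0.97 and 2.10 (lowest, median and highest) in mouse IgG CONTROL and -2.60, -1.14 and 0.07 in TBP LOF embryos. The mean was -1.22 ± 0.991 in TBP LOF and 0.91 ± 0.640 in CONTROL embryos (SD, n = 9 each), and all 9 TBP LOF embryos were below the CONTROL median. The log2 ratio of Chd1 to Chd4 was -0.30, 0.36 and 1.05 in CONTROL and -1.84, -0.60 and 0.17 in TBP LOF embryos, with a mean difference of -1.06 (SE 0.29) and all 9 TBP LOF embryos below the CONTROL median. The log2 ratio of Arid1a to Arid2 was 0.83, 1.21 and 2.12 in CONTROL and 0.51, 1.15 and 1.62 in TBP LOF embryos with a mean difference of -0.22 (SE 0.19).

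**Figure D4:**
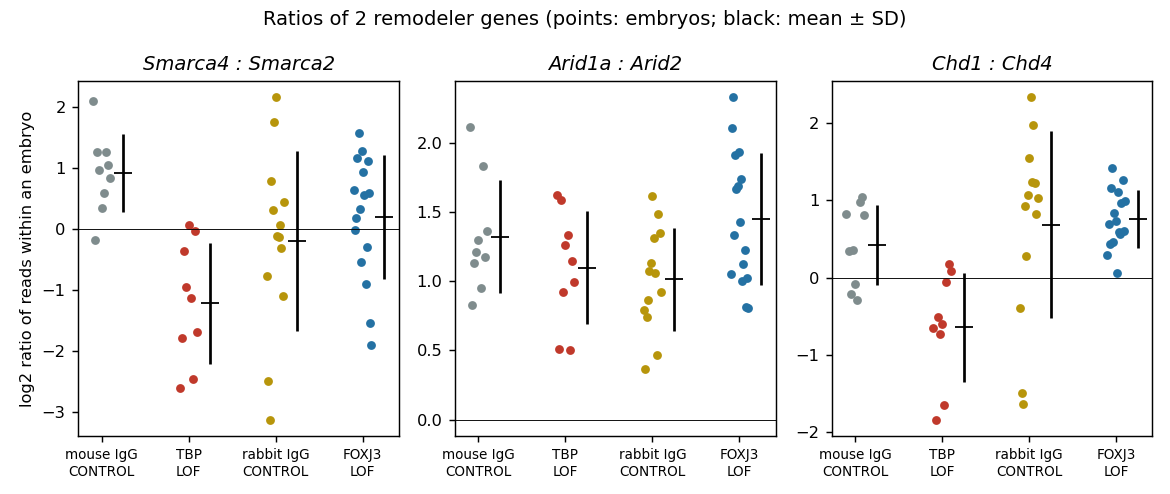
Log2 ratio of the reads of 2 genes within each embryo, in 9 mouse IgG CONTROL, 9 TBP LOF, 13 rabbit IgG CONTROL and 16 FOXJ3 LOF embryos. Points are embryos and black bars the mean ± SD. The Smarca4 to Smarca2 and Chd1 to Chd4 ratios are lower in TBP LOF than in its CONTROL, and the rabbit IgG embryos spread widely in these ratios but not in that of Arid1a to Arid2.

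Markers of the oocyte and of the 2-cell stage took a larger median share of the reads in TBP LOF embryos. The 6 markers of the 2-cell stage summed to 202.6, 249.6 and 391.3 CPM (lowest, median and highest) in TBP LOF and 88.5, 115.8 and 236.7 in CONTROL embryos. Under ERCC scaling 0 of these 6 were called, and 1 had a negative log2 fold change, of -1.24. Under TMM scaling 2 of them rose and 4 did not pass the test. The summed level of 6 oocyte genes (Zp3, Gdf9, Bmp15, Nlrp5, Zar1 and Oosp1) was 1841, 2571 and 3382 CPM (lowest, median and highest) in TBP LOF and 775.6, 1347 and 2309 in CONTROL embryos. Under ERCC scaling 1 of the 6 fell, Zp3, and 5 did not pass the test, among them Gdf9 (log2 fold change 0.09, SE 0.29, adjusted p = 0.854, edgeR). Under TMM scaling those 5 rose. Their part in the values of Smarca2, Arid1a, Arid2 and Chd4 was not tested.

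The partners of these enzymes were read from 51 other remodeler genes, of which 49 could be tested. Of these, 21 fell and 0 rose in TBP LOF embryos (ERCC scaling, median log2 fold change -0.83), beside 29.8% of all genes lower and 1.4% higher. No gene among them was higher at an unadjusted p under 0.05, and DESeq2 called 22 lower and 0 higher. With the stricter filter 17 of 34 fell, beside 4056 of 7699 genes. Without TBP LOF embryos 9 and 11, a choice made after seeing the data, 15 of the 49 and 6 members fell, beside 24.6% of all genes in that fit. Under TMM scaling 7 fell and 4 rose, beside 12.9% and 13.2% of all genes.

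The share of all genes that fell, 29.8%, also stands beside the counts of each complex. Among the other SWI/SNF subunits 8 of 21 fell, with the smallest adjusted p-values in the actin-related subunit Actl6a (log2 fold change -2.21, SE 0.36, adjusted p = 1.86e-06, edgeR), Brd9 of the non-canonical form (-2.27, SE 0.41) and Smarce1 (-1.87, SE 0.36). Among the partners of the ISWI ATPases 6 of 9 fell. Pole3, a small histone-fold subunit (-1.40, SE 0.31), its partner Baz1a (-1.44, SE 0.33) and Rsf1 (-1.94, SE 0.44) had the smallest adjusted p-values. Among the other CHD genes 2 of 7 fell, Chd2 (-2.83, SE 0.77) and Chd7 (-1.08, SE 0.30). Among the NuRD subunits 5 of 12 fell, with the smallest adjusted p-values in Cdk2ap1 (-1.83, SE 0.34), Mta2 (-1.53, SE 0.31) and Mbd3 (-1.69, SE 0.39), although Chd4 itself was not called. Under TMM scaling 4 of the SWI/SNF subunits were lower and 3 higher, 0 of the 9 ISWI partners were called by edgeR (3 lower and 0 higher at an unadjusted p under 0.05), 1 of the CHD genes was lower, and 2 of the NuRD subunits were lower and 1 higher. Actl6a, Brd9, Smarce1, Chd2, Cdk2ap1 and Mta2 were among those lower, while Pole3, Baz1a, Rsf1, Chd7 and Mbd3 did not pass the test.

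The next comparison asks the same question of FOXJ3, a forkhead factor. The counts were scaled by TMM with the library batch as a covariate. None of the 10 members was called, against 0.0107% of 18626 genes called in either direction (2 genes, both lower). No member had an unadjusted p under 0.05, and DESeq2 also called 0. The log2 fold changes ran from -0.29 (SE 0.26) in Smarca2 to 0.21 (SE 0.14) in Arid1a, 5 of the 10 negative, and the median over all genes was -0.03. Of the other 49 remodeler genes 0 were called and DESeq2 called 0. An unadjusted p under 0.05 was found for 4 of them, beside 5.69% of all genes.

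Smarca4 had 40.5, 135 and 236 normalised reads (lowest, median and highest of 13) in rabbit IgG CONTROL and 87.5, 167.3 and 242.5 in the 16 FOXJ3 LOF embryos. The groups overlapped over nearly their whole range (log2 fold change 0.17, SE 0.19, adjusted p = 0.962, edgeR). Smarca2 had 52.5, 140.8 and 438.1 in CONTROL and 68.7, 136.2 and 358.8 in FOXJ3 LOF embryos, with an adjusted p = 0.948 (edgeR). Arid2 had 56.8, 90.8 and 128.4 in CONTROL and 40.5, 74.6 and 128.2 in FOXJ3 LOF embryos, of which 11 of 16 were below the CONTROL median (log2 fold change -0.22, SE 0.16, adjusted p = 0.918, edgeR). Arid1a had 127.4, 174.8 and 283.3 in CONTROL and 160.8, 203.9 and 300.1 in FOXJ3 LOF embryos (adjusted p = 0.916, edgeR). In the other 6 members the groups overlapped as well, and the adjusted p-values were 0.966 or higher (edgeR).

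The lowest Smarca4 and highest Smarca2 values of the rabbit IgG CONTROL came from the pair of batch 1 embryos that stood apart. Smarca4 was at 77.7 normalised reads in embryo 2 and 40.5 in embryo 3, and Smarca2 at 438.1 and 356.5. Chd1 was at 30.9 and 37.2 in them, the lowest of all 13, and Tbp at 114.5 and 95.2. Their summed oocyte markers were 3144 and 4159 CPM and their summed markers of the 2-cell stage 495.1 and 665.9 CPM, both the highest of the 13 CONTROL embryos. Without them still 0 of the 10 members were called, and the log2 fold change of Smarca2 turned from -0.29 to 0.18 (SE 0.21) and that of Chd4 from -0.06 to 0.09 (SE 0.17).

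Within batch 1 (9 FOXJ3 LOF and 7 CONTROL embryos) Arid2 did not pass the test (log2 fold change -0.55, SE 0.23, adjusted p = 0.531, edgeR), though all 9 FOXJ3 LOF embryos were below the CONTROL median. Within batch 2 (7 and 6 embryos) it was 0.16 (SE 0.22, adjusted p = 0.988, edgeR). The difference between the batches was -0.69 (SE 0.30, adjusted p = 0.599, edgeR) and did not pass the test. Without the CONTROL embryos that stood apart, Arid2 was at -0.52 (SE 0.23) in batch 1. Smarca2 had -0.75 (SE 0.36) in batch 1, 0.11 (SE 0.28) in batch 1 without those embryos and 0.25 (SE 0.28) in batch 2. Over the 10 members 0 differed between the batches, as did 0% of all genes (edgeR). An unadjusted p under 0.05 was found for 1 member, Arid2, beside 8.02% of all genes.

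The log2 ratio of Arid1a to Arid2 within an embryo was 0.37, 1.06 and 1.61 (lowest, median and highest) in rabbit IgG CONTROL and 0.80, 1.38 and 2.33 in FOXJ3 LOF embryos, of which 7 were above the highest CONTROL embryo. The mean difference was 0.43 (SE 0.16) over both batches, 0.78 in batch 1 and 0.01 in batch 2, and 0.33 without the pair of embryos that stood apart. The ratio of Chd1 to Chd4 differed by 0.64 in batch 1 and by -0.57 in batch 2, and that of Smarca4 to Smarca2 by 0.81 and -0.15. Without the pair of embryos these ratios differed by -0.01 and -0.23 in batch 1. As in the TBP experiment, these ratios are given as a description.

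**Figure D5:**
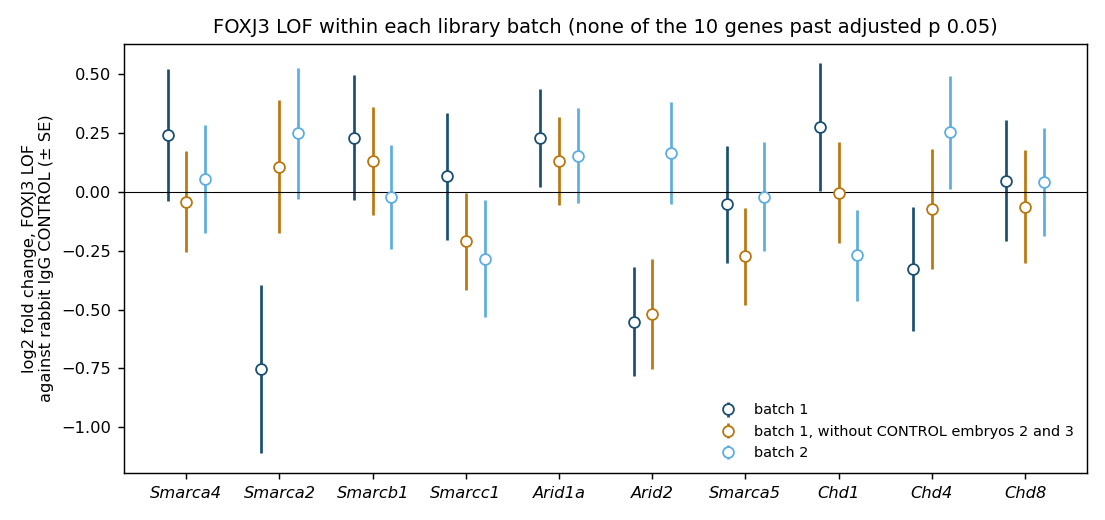
Log2 fold change of each gene, FOXJ3 LOF against rabbit IgG CONTROL, with its SE, fitted in batch 1, in batch 1 without CONTROL embryos 2 and 3, and in batch 2. None of the points passed an adjusted p of 0.05, and the Smarca2 value in batch 1 moves from -0.75 to 0.11 without the pair of embryos.

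The effect of TBP LOF was then set against that of FOXJ3 LOF in a joint fit with ERCC scaling. The effects differed in 6 of the 10 members, all with the lower value in TBP LOF, while 28.1% of 18759 genes had a lower and 0.97% a higher effect of TBP LOF. These were Smarcb1 (difference in log2 fold change -2.06, SE 0.40, adjusted p = 5.06e-05, edgeR), Smarca4 (-1.88, SE 0.41), Smarcc1 (-1.44, SE 0.45), Chd8 (-1.41, SE 0.42), Chd1 (-1.28, SE 0.39) and Smarca5 (-1.16, SE 0.41, adjusted p = 0.0262). Smarca2 (0.59, SE 0.46), Arid1a (-0.53, SE 0.36), Arid2 (0.02, SE 0.39) and Chd4 (-0.04, SE 0.42) did not pass the test. Without the pair of CONTROL embryos that stood apart 6 members again differed, with Smarca5 nearest the threshold (-1.03, SE 0.41, adjusted p = 0.048, edgeR). In that fit 21 of the other 49 remodeler genes had a lower effect of TBP LOF, as did 5135 of 18455 genes. With TMM scaling 2 members had a lower and 3 a higher effect in TBP LOF, beside 10.9% and 10.5% of all genes.

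Of the other 49 remodeler genes, 20 had a lower effect of TBP LOF and 0 a higher one, beside 28.1% and 0.97% of all genes. The genes with the smallest adjusted p-values are named for each complex. Actl6a (-2.24, SE 0.42), Brd9 (-2.20, SE 0.47) and Smarcc2 (-2.78, SE 0.61) were those of the SWI/SNF subunits. Mta2 (-1.91, SE 0.38), Cdk2ap1 (-2.05, SE 0.43) and Mbd3 (-1.98, SE 0.48) were those of the NuRD subunits, Baz1a (-1.85, SE 0.45), Rsf1 (-2.13, SE 0.54) and Pole3 (-1.48, SE 0.38) the ISWI partners, and Chd2 (-3.57, SE 0.90) and Chd7 (-1.41, SE 0.37) the CHD genes. The antibodies differ in species and kind and the experiments were separate, so these cannot be told apart from the targeted protein in this contrast.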

How the data were processed

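The authors trimmed the reads, aligned them with STAR 2.7.11a to GRCm38 and counted 5' reads per gene and transposon family with TEcount. The values deposited are raw counts for genes and estimated counts for transposon families. The strand setting and the handling of multimapping reads were not given in the sources used here. Here, features with at least 1 read in 25% of the embryos were tested with edgeR 4.0.16 (quasi-likelihood, R 4.3.3), scaled by 42 ERCC transcripts for TBP and by TMM for FOXJ3. The ERCC scaling and the batch term for FOXJ3 follow the study's methods, which used DESeq2, while TMM was chosen here. P-values were adjusted over all genes and families, with a threshold of 0.05. Ratios used 0.5 added reads. Named genes were the members, up to 3 called genes per list and direction, and 3 most similar genes for Smarca4, Smarca5 and Chd4. The members and lists were chosen with earlier results of these data known. Alternatives were TMM, ERCC and median-of-ratios scaling, DESeq2 1.42.0, other filters, all embryos kept, the TElocal tables (of 1041922 gene values 0 differed) and embryos left out. Simulated counts were used to check the tests. For TBP they were scaled by library size in place of ERCC, so the choice of scale was not checked. Counted reads were 1103569 to 5434808 per embryo, which limits precision at low counts.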

Additional observations from a re-analysis of the deposited data

Results flagged for a closer look

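Chd4 in the highest TBP LOF embryo (replicate 8) was at 196.9 normalised reads, while the next embryo of the group was at 106.8. The gap made up 0.539 of the range of the 9 embryos, above the Dixon critical value of 0.493. It was the 1 case among 20 groups of 9 embryos, and chance alone gives about 1 in 20. Without this embryo the log2 fold change of Chd4 was -0.20 in place of 0.06, and neither value passed the threshold.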

How the results depend on the processing

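The 6 falls in TBP LOF embryos were called with DESeq2, with other filters, with all embryos kept and without any 1 embryo, where the other remodeler genes called lower ranged from 17 to 22 and 6 members were lower each time. Under TMM or median-of-ratios scaling 2 members were lower and 4 higher, and of the other remodeler genes 7 were lower and 4 higher. For the difference of effects under TMM these counts were 2, 3, 7 and 5. All genes called lower and higher were 5497 and 258 with ERCC scaling, 2382 and 2437 with TMM and 2375 and 2550 with median-of-ratios, of 18447 tested. They were 6092 and 460 of 28073 without a filter, and 4056 and 123 of 7699 with filterByExpr. Arid1a turned to 0.66 with TMM, 0.68 with median-of-ratios and 0.0595 without TBP LOF embryos 9 and 11. Leaving out 1 embryo moved Arid2 between -0.08 and 0.14, with -0.0779, -0.0692, -0.0606, -0.0067 and -0.0044 below 0, and Chd4 between -0.20 and 0.19, with -0.0113 as well. The difference of effects was 0.47 for Arid1a and 0.88 for Chd4 with TMM. The cause was not tested.

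In the FOXJ3 comparison, where no member was called, signs turned with ERCC scaling for Smarca5 (0.21), Smarcc1 (0.12) and Chd4 (0.0848), without the batch term for Chd1 (-0.0438), in batch 1 for Smarcc1 (0.0654), and in batch 2 for Smarca2 (0.25), Smarcb1 (-0.0218), Arid2 (0.16), Chd1 (-0.27) and Chd4 (0.25). Without the 2 CONTROL embryos that stood apart, a choice made after seeing the data, they turned for Smarca2 (0.18), Chd1 (-0.14), Chd4 (0.0879) and Chd8 (-0.0115), within batch 1 for Smarca4 (-0.0421), Smarca2 (0.11), Chd1 (-0.0038) and Chd8 (-0.0626), and for the ratios of Smarca4 to Smarca2 (-0.19) and Chd1 to Chd4 (-0.28). Genes called lower were 2, and 4 with DESeq2 or without a filter, 1 with filterByExpr and 0 within either batch. The correlation of embryos with the same number was -0.0509 to 0.159 over 7 TBP pairs, 2 of them over 0.1, and -0.233 to 0.286 over 12 FOXJ3 pairs, 3 of them over 0.1, so the numbers were not taken to pair the embryos. With the number as a replicate block, 6 members and 19 other remodeler genes were lower in TBP LOF, beside 4579 of 18447 genes lower and 281 higher. In FOXJ3 LOF 0 members were called in that fit, as were 0 of all genes. Without division by length Arid1a ranked 1, Smarca4 3, Smarca2 5 and Chd8 7 in mouse IgG CONTROL embryos.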
